A study of Mus musculus with 12 samples.

Results

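The NF-κB subunit and IκB family genes examined here were Rela, Relb, Rel, Nfkb1, Nfkb2, Nfkbia, Nfkbib, Nfkbie, Nfkbiz and Bcl3. They were selected by gene symbol, and all 10 were present among the 12960 genes of the deposited count table and among the 10822 genes that passed the filter on low counts.

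The genes were measured by RNA sequencing in bone marrow-derived macrophages (BMDMs) of wild-type (WT) mice and of mice lacking the β1 subunit of AMP-activated protein kinase (AMPKβ1-/-). Marrow cells were differentiated for 7 days in medium with L929-conditioned medium as the source of M-CSF, and cells of both genotypes then received either vehicle (0.1% DMSO) or 10 µM PF-06409577, a direct activator of AMPK complexes that hold the β1 subunit, for 6 h. Each of the 4 groups, WT with vehicle, WT with PF-06409577 (PF), AMPKβ1-/- with vehicle and AMPKβ1-/- with PF, held 3 libraries, and the comparisons addressed how AMPK activation alters macrophage expression and whether the β1 subunit is needed for it. The labels name no inflammatory stimulus in any group, do not give the age of the mice, and do not say whether the 3 libraries of a group came from separate mice, so p-values describe the spread between these libraries. The knockout cells still carry the gene for the other β subunit of AMPK.

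NF-κB transcription factors are dimers built from 5 subunits. Rela, Relb and Rel encode the subunits with a transactivation domain, and Nfkb1 and Nfkb2 encode precursors that are processed to DNA-binding subunits. In resting macrophages the dimers are held in the cytoplasm by inhibitors, of which Nfkbia (IκBα), Nfkbib (IκBβ) and Nfkbie (IκBε) are the classical ones, until Toll-like receptor or cytokine signals cause their degradation. Nfkbiz (IκBζ) and Bcl3 encode nuclear family members that bind the subunits on DNA. Several of these genes are themselves NF-κB targets, which forms a feedback loop.

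The libraries held 8935609 to 14358180 estimated counts. Prkab1, which encodes the deleted subunit, lay between 37.3 and 45.3 CPM (counts scaled to library size) in the 6 WT libraries and between 6.05 and 9.42 CPM in the 6 AMPKβ1-/- libraries. All 8 macrophage markers were measured in every group, with summed levels of 25190 to 29680 CPM led by Lyz2, whereas the granulocyte and dendritic cell markers summed to at most 1.39 and 1.55 CPM. Cd4 led the lymphoid markers, which summed to 13.8 to 15.8 CPM in WT and 6.47 to 7.74 CPM in AMPKβ1-/- libraries, while Cd3e and Ms4a1 were not listed. Fibroblast markers summed to between 1.31 and 3.19 CPM, except in AMPKβ1-/- vehicle libraries, where they ranged from 2.87 to 10.5 CPM. The part of these lymphoid and fibroblast differences in the results below was not tested. The libraries also differed in how strongly a gene's level followed the GC content of its transcript. This slope, in log2 units per 10 percentage points of GC, was 0.36 to 0.72 in WT vehicle, -0.051 to 0.37 in WT PF, -0.36 to -0.10 in AMPKβ1-/- vehicle and -0.51 to -0.33 in AMPKβ1-/- PF libraries. With 3 libraries a group, an exact permutation test (two-sided) cannot go below p = 0.1, the value reached between the genotypes with either treatment. Between PF and vehicle this exact test gave p = 0.2 in WT and p = 0.3 in AMPKβ1-/- BMDMs.

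Because NF-κB binds its own family's promoters, the start regions of these genes were read from the RefSeq promoter table for GRCm38.p6. It held 7 of the 10 genes, and the κB consensus, searched on both strands in the 250 bases before and 50 after each start, occurred in 5 of them (Rel, Nfkb2, Nfkbia, Nfkbie and Bcl3). The same search found it in 5.14% of all 27028 genes with a promoter and in 6.28% of the 10350 of them that the count table lists. The windows below run from 120 bases before to 20 bases after the start, on the strand of the gene, and show the matches in capitals, with overlapping matches merged.
Rel promoter (chr11:23770950-23771089, minus strand): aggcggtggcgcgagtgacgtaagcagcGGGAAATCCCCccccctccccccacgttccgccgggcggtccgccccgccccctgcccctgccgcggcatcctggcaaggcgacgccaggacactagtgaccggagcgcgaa
Nfkb2 promoter (chr19:46304617-46304756, plus strand): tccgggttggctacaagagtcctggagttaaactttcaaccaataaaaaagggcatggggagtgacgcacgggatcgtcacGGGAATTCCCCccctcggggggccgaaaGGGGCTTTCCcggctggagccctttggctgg
Nfkbia promoter (chr12:55492628-55492767, minus strand): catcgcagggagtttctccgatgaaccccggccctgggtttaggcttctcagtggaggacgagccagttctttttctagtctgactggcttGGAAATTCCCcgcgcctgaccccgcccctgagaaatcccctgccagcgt
Nfkbie promoter (chr17:45555580-45555719, plus strand): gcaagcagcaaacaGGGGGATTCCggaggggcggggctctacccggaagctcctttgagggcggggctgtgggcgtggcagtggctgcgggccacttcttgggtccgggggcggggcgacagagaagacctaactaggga
Bcl3 promoter (chr7:19822736-19822875, minus strand): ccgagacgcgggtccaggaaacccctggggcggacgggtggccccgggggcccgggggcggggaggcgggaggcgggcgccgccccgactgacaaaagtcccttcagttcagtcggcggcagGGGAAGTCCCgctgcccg
Counting the first transcribed base as 1, the match begins at -92 in Rel, -29 in Nfkbia, -106 in Nfkbie and 3 in Bcl3, and the Nfkb2 stretches begin at -39 and -11. Nfkb2 has 3 listed starts, each with a match, and the first is shown. The promoters of Rela and Nfkbib held no match in the searched window. Such a match is a description of the letters and not a measured binding site. In the GENCODE M21 annotation of GRCm38 the family is spread over 7 chromosomes, with Relb at chr7:19606217-19629438, Nfkb1 at chr3:135584655-135691547, Nfkbiz at chr16:55811375-55838899, Rela at chr19:5637483-5648130 and Nfkbib at chr7:28758251-28767512. Exons of Nfkb2 overlap those of Psd by 299 and of AC114539.1 by 531 bases, all on the other strand, exons of Nfkbib overlap those of Ccer2 by 314 and of Sirt2 by 42 bases and exons of Bcl3 those of the antisense gene Gm16175 by 161 bases. The library kit was directional, but the strand setting of the quantification is not given in the sources used here, so reads from these shared stretches may not have been separated.

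The family spanned a wide range of levels in WT macrophages with vehicle. Per kb of transcript, the scale used to compare genes, Nfkbia was highest at 149.8 ± 16.2 CPM per kb (mean ± SD, n = 3) and Rel lowest at 2.58 ± 0.82 CPM per kb. Below Nfkbia came Rela at 94.5 ± 8.3, Nfkb2 at 67.2 ± 5.3, Relb at 53.5 ± 2.5 and Nfkb1 at 45.6 ± 4.1 CPM per kb. They were followed by Nfkbib at 30.9 ± 2.6, Nfkbie at 28.3 ± 1.1, Bcl3 at 22.8 ± 1.5 and Nfkbiz at 10.6 ± 1.7 CPM per kb. In this group only the neighbours Nfkbib and Nfkbie had overlapping ranges. Nfkbia, Rela and Nfkb2 held the first 3 places in all 4 groups and Rel the last, but in both AMPKβ1-/- groups Nfkb1 stood above Relb, and Nfkbie above Nfkbib. In AMPKβ1-/- vehicle cells the ranges of Nfkb2 and Nfkb1, and of Bcl3 and Nfkbiz, overlapped. So did those of Nfkb2 and Nfkb1, and of Nfkbib and Bcl3, in AMPKβ1-/- PF cells. In WT PF cells the range of Relb overlapped those of Nfkb2 and Nfkb1. Nfkb2 was thus apart from the gene below it only in WT vehicle cells. The length used was that of the longest protein-coding transcript of each gene, 1578 bases for Nfkbia and 7466 for Rel. The order rests on this choice. Without division by length, mean levels in WT vehicle cells were 259 CPM for Nfkb2, 257 for Rela and 236 for Nfkbia.

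**Figure D1:**
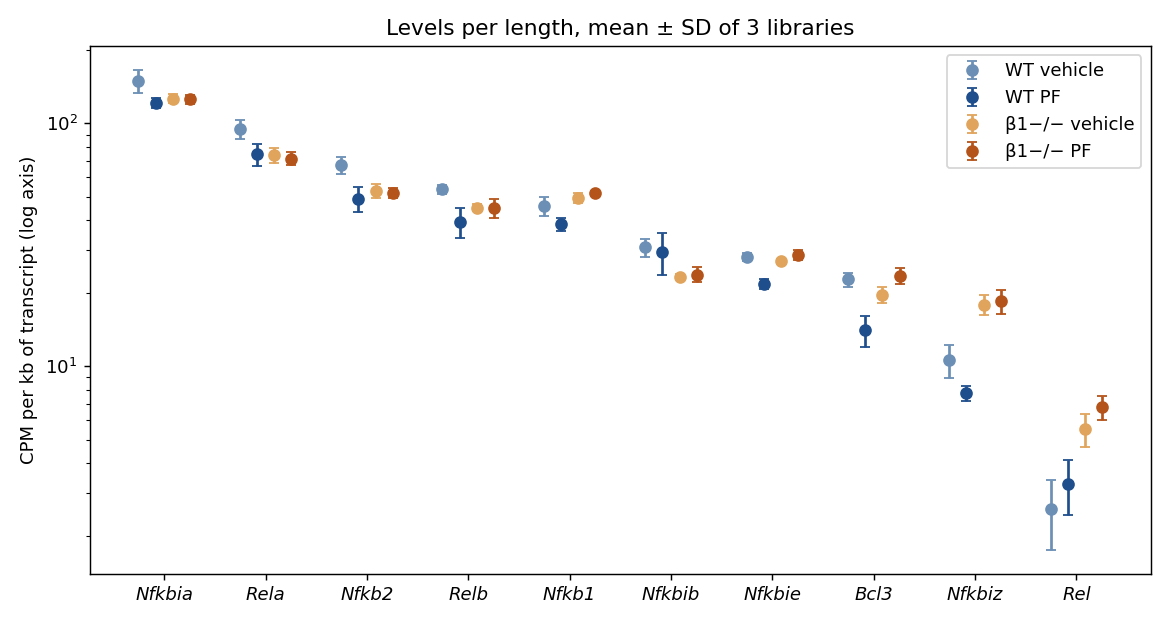
Level per kb of transcript (CPM per kb, log axis) of each gene in the 4 groups, with points for the mean and bars for the SD of 3 libraries. Nfkbia lies highest and Rel lowest in every group, and Nfkbiz and Rel lie higher in both AMPKβ1-/- groups than in both WT groups.

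Within the classes, per kb of transcript, Nfkbia made up most of the inhibitor transcripts and Rela was the most abundant subunit. Nfkbia held 71.6 ± 1.5% of the summed per-kb level of the 3 classical inhibitors in WT vehicle cells and 70.4 to 71.4% on average in the other groups. Rela held 35.8 ± 1.4% of the summed per-kb level of the 5 subunits in WT vehicle and 32.6 ± 1.1% in AMPKβ1-/- vehicle cells. Rel held 0.99 ± 0.37% and 2.44 ± 0.41% in these groups, and its ranges did not overlap between them. Across the 12 libraries the log2 CPM of Rel followed the GC slope described above with Pearson's r = -0.98, and that of Rela with r = 0.87. The shares were not adjusted for this slope, and its part in them was not tested. The log2 ratio of the summed inhibitors to the summed subunits, per kb, was -0.34 ± 0.09 in WT vehicle, -0.24 ± 0.09 in WT PF, -0.35 ± 0.09 in AMPKβ1-/- vehicle and -0.35 ± 0.07 in AMPKβ1-/- PF cells. The ranges of the 4 groups overlapped. Without division by length the WT PF range (-1.17 to -1.03) lay above those of AMPKβ1-/- vehicle (-1.33 to -1.19) and AMPKβ1-/- PF cells (-1.32 to -1.18).

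In WT macrophages transcripts on both sides of the pathway were lower with PF, a result that depended on the processing. Of the 10 genes, 8 had lower levels at an adjusted p under 0.05 (edgeR quasi-likelihood test, Benjamini-Hochberg over all genes tested) and none had higher levels, where 8.95% of all genes tested were lower and 6.99% higher. None of the 10 moved by more than 0.8 on the log2 scale, a size that 1.52% of all genes passed together with the test. The ranges with PF and with vehicle stood apart for 8 of the 10 genes, against 32.2% of all genes. The median log2 fold change was -0.36 for the 10 genes and 0.0048 for all genes tested. Scaling by library size alone left 5 of the 10 lower and turned the split of all genes from 756 higher and 969 lower to 1045 and 587. An offset for each library's trend with GC content and transcript length left 4 of the 10 lower, beside 435 of all 10822 genes. With only the WT libraries in the fit 2 of the 10 were lower, beside 209 of 10472 genes. Of the 8 macrophage markers, 3 were lower and none higher, and their part in the result was not tested. In bulk RNA, fewer cells of a type and less RNA per cell cannot be told apart.

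Among the subunits, Nfkb2 and Relb fell the most. Nfkb2, whose product pairs with RelB in the non-canonical pathway, stood at 279, 238 and 258 CPM in WT vehicle and 212, 184 and 168 CPM in WT PF libraries. All PF libraries were below all vehicle libraries, with a log2 fold change of -0.46 (adjusted p = 0.0066 by edgeR, SE 0.092). Relb stood at 123, 112 and 119 CPM with vehicle and 100.3, 83.8 and 76.4 CPM with PF. Its 3 PF libraries spread more widely than its vehicle libraries but were again all lower (log2 fold change -0.45, adjusted p = 0.0104, SE 0.098). Rela, the main transactivating subunit of the canonical pathway, went from 275, 231 and 264 CPM to 226, 198 and 184 CPM. The highest PF library lay just under the lowest vehicle library, and the log2 fold change was -0.34 (adjusted p = 0.0253, SE 0.092). Nfkb1, the partner of RelA in the most common dimer, went from 169.8, 191 and 203 CPM to 169, 151 and 154 CPM, a small fall of 0.25 on the log2 scale (adjusted p = 0.0445, SE 0.079). Rel, the subunit of lymphoid and stimulated myeloid cells, was at 13.8, 25.8 and 18.1 CPM with vehicle and 18.2, 24.6 and 30.8 CPM with PF. These groups overlapped, and the log2 fold change of 0.35 (adjusted p = 0.273, SE 0.22) did not pass. The call for Nfkb2 held when any 1 library was left out. That for Relb was lost without WT PF replicate 2 (adjusted p = 0.0525) or 3 (0.062), and that for Rela without WT vehicle replicate 1 (0.0957) or 3 (0.0734) or WT PF replicate 2 (0.0884) or 3 (0.135). The call for Nfkb1 remained only without WT vehicle replicate 1, WT PF replicate 1 or AMPKβ1-/- vehicle replicate 1, and leaving out any of the other 9 libraries gave adjusted p values of 0.0574 to 0.169. It was also lost with DESeq2 size factors (adjusted p = 0.0556), without a filter (0.0641) and with library size alone (0.142). With only the WT libraries in the fit, Relb (adjusted p = 0.0515), Rela (0.0862) and Nfkb1 (0.152) did not pass and Nfkb2 did (0.0413), with log2 fold changes of -0.43, -0.32, -0.23 and -0.45.

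Of the cytoplasmic inhibitors, Nfkbie and Nfkbia fell while Nfkbib did not change detectably. Nfkbie, at 68.5, 66.6 and 71.7 CPM with vehicle, was at 54.7, 54.8 and 50.2 CPM with PF. Its coefficient of variation of 3.74% in WT vehicle cells was the lowest of the 10 genes, and its log2 fold change was -0.37 (adjusted p = 0.0077 by edgeR, SE 0.077). Nfkbia, which NF-κB itself induces to end its own activity, went from 266, 219 and 224 CPM to 194, 201 and 182 CPM. The fall was 0.30 on the log2 scale (adjusted p = 0.0272, SE 0.082), and vehicle replicate 1 lay well above the other vehicle libraries. Nfkbib was at 69.2, 58.3 and 63.7 CPM with vehicle and 73.7, 59.1 and 49.9 CPM with PF, so that the PF libraries spanned the vehicle range on both sides (log2 fold change -0.066, adjusted p = 0.703, SE 0.12). The call for Nfkbie was lost without WT PF replicate 3 (adjusted p = 0.0526), and that for Nfkbia without WT vehicle replicate 1 (0.116) or WT PF replicate 2 (0.064) or 3 (0.138). With only the WT libraries in the fit neither passed (Nfkbie adjusted p = 0.0617, Nfkbia 0.105), nor did Nfkbia with library size alone (0.054).

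Both nuclear members fell, and Bcl3 moved more than any other gene of the family. Bcl3, a coregulator that binds homodimers of the processed subunits, stood at 41.6, 39.8 and 45.3 CPM in WT vehicle and at 28.6, 27.9 and 21.6 CPM in WT PF libraries. The gap between the groups was wider than the range within either, with a log2 fold change of -0.70 (adjusted p = 0.00225 by edgeR, SE 0.11) that ranked 81 by p among all genes tested. Nfkbiz, which drives a set of secondary response genes such as Il6 in stimulated macrophages, went from 36.5, 44.4 and 50.1 CPM to 29.3, 33.9 and 32.4 CPM. All PF libraries were lower, by 0.46 on average on the log2 scale (fold change 0.729, adjusted p = 0.0242, SE 0.12). The call for Bcl3 held when any 1 library was left out, and that for Nfkbiz was lost without WT vehicle replicate 3 (adjusted p = 0.0975) or WT PF replicate 2 (0.0573) or 3 (0.0797). With only the WT libraries in the fit Bcl3 passed (adjusted p = 0.0192) and Nfkbiz did not (0.0675), nor did Nfkbiz with library size alone (0.0705).

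**Figure D2:**
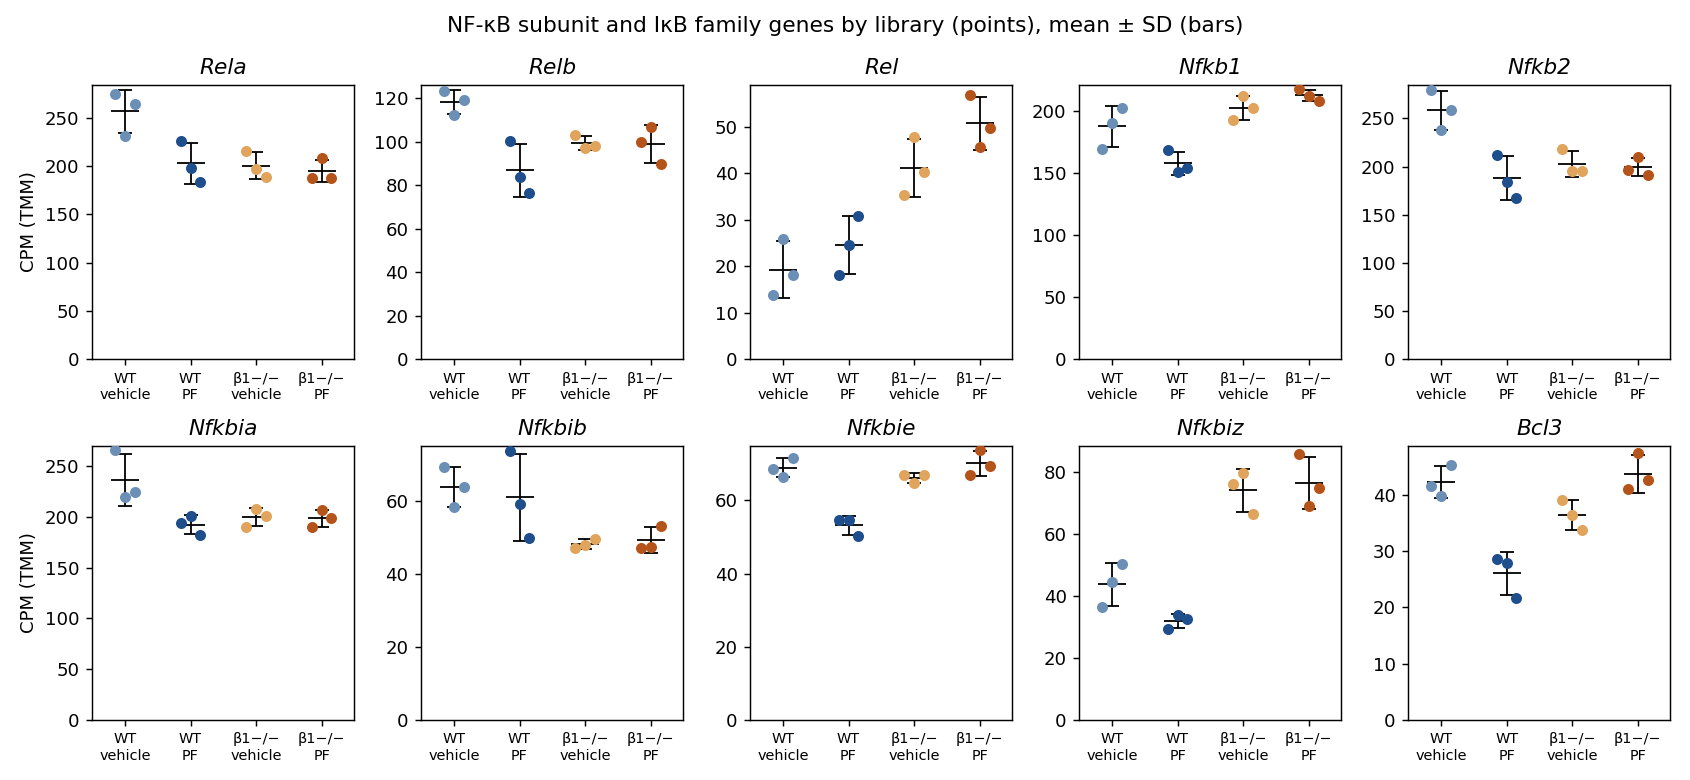
CPM (TMM-scaled) of each gene in every library, as points, with the mean and SD of the 3 libraries of a group as bars. In WT cells the PF libraries lie below the vehicle libraries for every gene but Rel and Nfkbib. In AMPKβ1-/- cells vehicle and PF libraries overlap for every gene but Nfkbie and Bcl3, where PF lies higher.

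The direction of change in WT cells moved with GC content across the genome. Spearman's rho between log2 fold change and GC content was -0.71 across 10785 genes, which are not independent replicates. Rela, Relb, Nfkb2, Nfkbib and Bcl3 belong to the fifth of genes richest in GC, of which 26.1% were lower with PF at adjusted p under 0.05. Nfkb1, Nfkbia and Nfkbie belong to the next class, with 13.7% lower, and Nfkbiz to the middle class, with 4.45% lower. Rel, with a GC content of 42.5%, belongs to the class poorest in GC, where 17.3% were higher and 0.0464% lower. When each library's trend with GC and length was taken out by an offset, 4 of the 10 genes remained lower (edgeR): Bcl3 with a log2 fold change of -0.45 (adjusted p = 0.00176, SE 0.082), Nfkbiz with -0.44 (adjusted p = 0.0162), Nfkbia with -0.23 (adjusted p = 0.0251) and Nfkb2 with -0.19 (adjusted p = 0.0443). Of all 10822 genes tested, 435 were lower and 355 higher in the same fit. Under this offset Nfkbie (-0.16, adjusted p = 0.146), Relb (-0.18, adjusted p = 0.103), Nfkb1 (-0.11, adjusted p = 0.345) and Rela (-0.064, adjusted p = 0.508) no longer passed. The value of Rel went to -0.0084 and that of Nfkbib to 0.17 (adjusted p = 0.227). Nfkbiz was thus nearly as low with the offset as without it, whereas Rela lost most of its change.

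**Figure D3:**
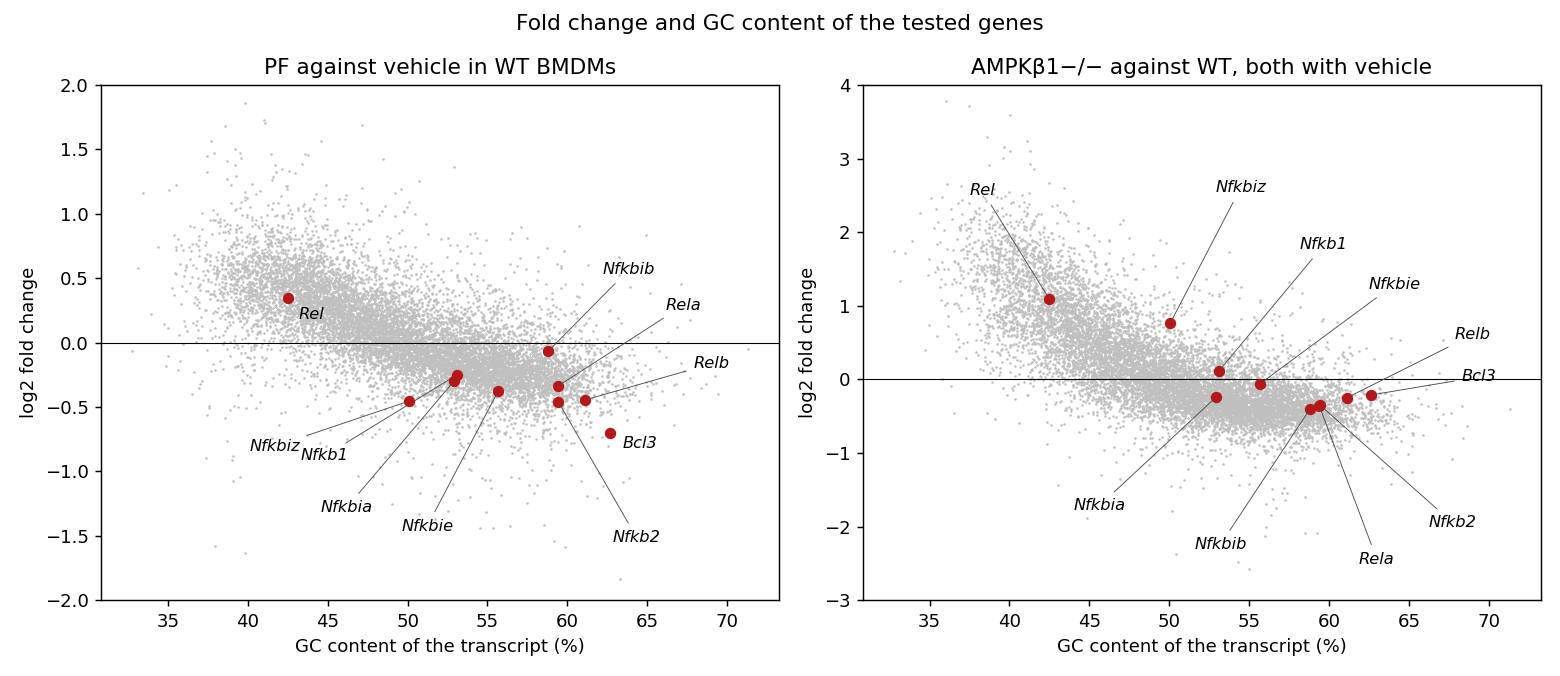
Log2 fold change against GC content of the transcript (%) for the tested genes (grey) and the 10 family genes (red), for PF against vehicle in WT cells (left) and AMPKβ1-/- against WT with vehicle (right). The axes leave out 10 and 5 genes beyond the limits. Bcl3 and Nfkbiz lie below most genes of their GC content on the left, and Nfkbiz lies above them on the right.

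In AMPKβ1-/- macrophages no gene of the family passed the test with PF. Across all genes tested the share was 0.0554%, or 6 genes, each of which also moved by more than 0.8 on the log2 scale (0.0554%), and 464 genes were higher and 75 lower at an unadjusted p under 0.05. DESeq2 likewise called none of the 10. The log2 fold changes of the 10 genes ran from -0.043 for Rela to 0.30 for Rel, with a median of 0.037. The ranges stood apart for 2 of the 10 genes, against 14.5% of all genes. Bcl3 stood at 39.1, 36.5 and 33.7 CPM with vehicle and 40.9, 47.4 and 42.7 CPM with PF, so that all 3 PF libraries were higher (log2 fold change 0.26, SE 0.11, adjusted p = 0.928 by edgeR). Nfkbie was at 66.9, 64.7 and 66.9 CPM with vehicle and 67, 73.8 and 69.6 CPM with PF, apart by a margin much smaller than the spread within the PF group (log2 fold change 0.084, adjusted p = 0.982). Nfkb2 was at 218, 195 and 195 CPM with vehicle and 197, 209.8 and 191 CPM with PF, and Nfkbia at 190.3, 208 and 201 CPM and 189.8, 206 and 199 CPM. For both, the libraries of the groups were interleaved.

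**Figure D4:**
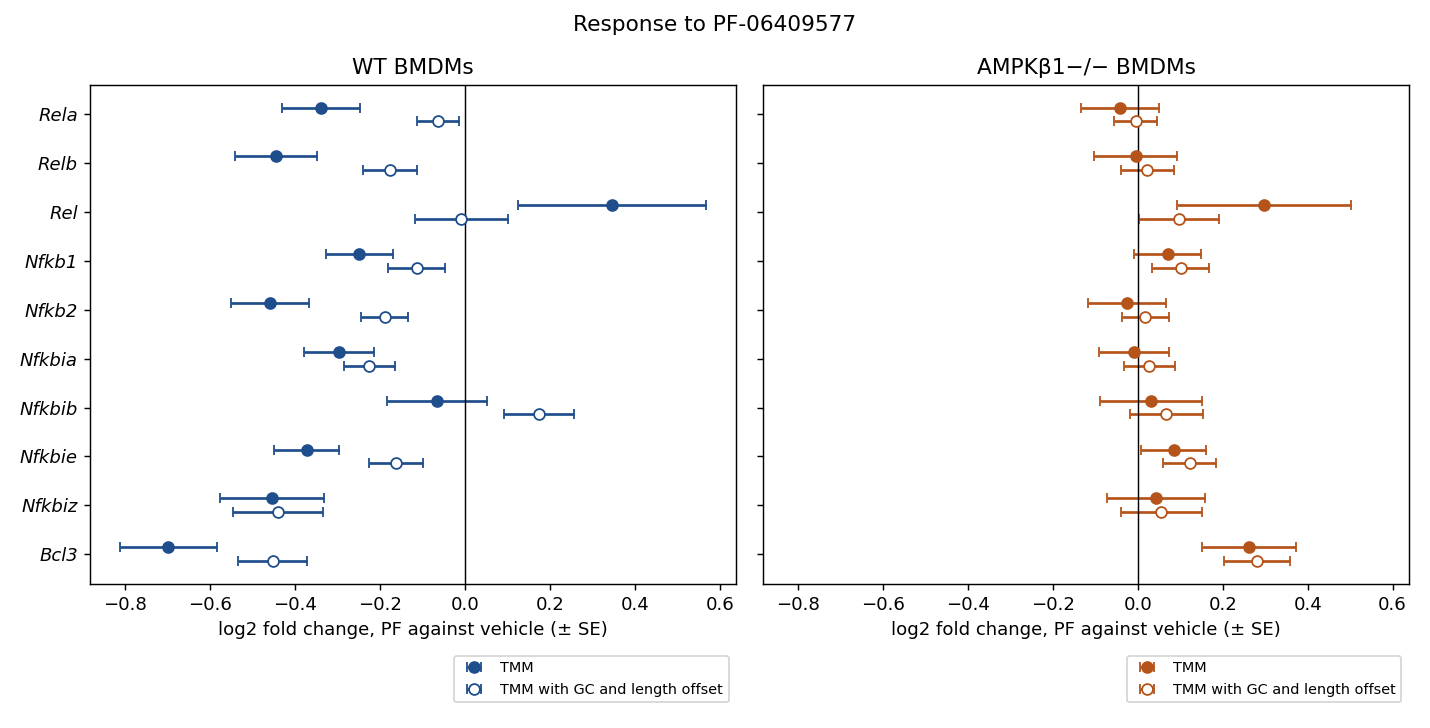
Log2 fold change of PF against vehicle (points, with bars for the SE) in WT (left) and AMPKβ1-/- (right) BMDMs, with TMM scaling alone (filled) and with the GC and length offset (open). With TMM alone, 8 of the 10 genes lie below 0 by more than 2 SE in WT cells. Bcl3 is the gene farthest below 0 in WT cells, and it lies above 0 in AMPKβ1-/- cells.

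Bcl3 was the 1 gene of the family whose response passed the test of a difference between the genotypes. The difference, the WT response minus the AMPKβ1-/- response, was -0.96 on the log2 scale for Bcl3 (adjusted p = 0.0196 by edgeR, SE 0.16) and ranked 11 by p among all genes tested. Bcl3 was 1 of 10 genes of the family to pass, against 0.416% of all genes, and it also passed the threshold of 0.8, as 0.157% of all genes did. It fell in WT cells, by a fold of 0.616, and its fold of 1.20 in AMPKβ1-/- cells did not pass on its own. The direction was kept in every alternative, and with the GC and length offset the difference was -0.73 (adjusted p = 0.00324). The adjusted p went to 0.0529 to 0.0808 when any 1 of AMPKβ1-/- vehicle replicates 2 and 3 or AMPKβ1-/- PF replicates 1, 2 and 3 was left out, and over all alternatives it ranged from 6.02e-05 to 0.0808. Nfkbie came next, with a difference of -0.46 (adjusted p = 0.0739, SE 0.11), and passed without WT PF replicate 1 (adjusted p = 0.0414). For the other 8 genes the adjusted p ran from 0.156 to 0.953, so that a fall seen in WT and not in AMPKβ1-/- cells was not shown to differ between them. Without WT PF replicate 1, Relb (adjusted p = 0.0289) and Nfkb2 (0.0325) passed as well. Calls rose among all genes in that fit too, to 133 with a positive and 151 with a negative difference, from 19 and 26 with all libraries. Nfkbiz had a difference of -0.50 (adjusted p = 0.201, SE 0.17), nearly the same with the offset (-0.50, adjusted p = 0.0996).

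The genotypes also differed without the drug, with members on both sides. With vehicle, 2 of the 10 genes were higher in AMPKβ1-/- than in WT cells and 5 lower at adjusted p under 0.05, where 29.7% of all genes were higher and 30% lower, so these counts show nothing particular to the family. Rel alone of the 10 also passed 0.8 on the log2 scale, as 17.8% of all genes did. Rel rose from 13.8, 25.8 and 18.1 CPM in WT to 35.4, 47.9 and 40.2 CPM in AMPKβ1-/- cells, a log2 fold change of 1.09 (adjusted p = 0.000931 by edgeR, SE 0.22). Nfkbiz rose from 36.5, 44.4 and 50.1 CPM to 76.1, 79.4 and 66.3 CPM, with every AMPKβ1-/- library above every WT library (log2 fold change 0.76, adjusted p = 0.000138, SE 0.12). The lower genes were Nfkbib (log2 fold change -0.40, adjusted p = 0.00911), Rela (-0.36, adjusted p = 0.00397), Nfkb2 (-0.35, adjusted p = 0.0043), Relb (-0.25, adjusted p = 0.0362) and Nfkbia (-0.24, adjusted p = 0.0188). Nfkb1 (0.11, adjusted p = 0.24), Nfkbie (-0.059, adjusted p = 0.521) and Bcl3 (-0.21, adjusted p = 0.115) did not pass.

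Of the 7 genotype differences that passed, only that of Nfkbiz passed in the same direction with the GC and length offset. Spearman's rho between log2 fold change and GC content was -0.76 across all genes in this comparison, and 82.6% of the class poorest in GC, that of Rel, was higher in AMPKβ1-/- cells. With the GC and length offset the difference of Rel was 0.024 (adjusted p = 0.884), while that of Nfkbiz stayed at 0.78 (adjusted p = 3.13e-05, SE 0.10). Under the offset none of the 10 was lower, and Nfkbie (0.31, adjusted p = 0.00104), Nfkb1 (0.29, adjusted p = 0.00289), Bcl3 (0.24, adjusted p = 0.0254) and Relb (0.19, adjusted p = 0.0227) were higher beside Nfkbiz. Of all 10822 genes tested, 1564 were higher and 2165 lower in that fit. Scaling by library size alone moved the median of all genes from -0.026 to 0.18 and left 3 genes higher and none lower, with 4296 of all genes higher and 1600 lower in place of 3216 and 3249. With the offset the differences of Rela (0.066), Nfkb2 (0.00059), Nfkbia (0.068) and Nfkbib (0.045) lay near 0 and did not pass, and that of Relb passed in the other direction. With library size alone the lower values of these 5 genes did not pass. The call for Nfkbia was also lost without WT vehicle replicate 1 (adjusted p = 0.116) or AMPKβ1-/- vehicle replicate 1 (0.0598). That for Relb was lost without WT vehicle replicate 1 (0.104) or 3 (0.0697) or AMPKβ1-/- vehicle replicate 2 (0.104) or 3 (0.0881). Relb also did not pass with DESeq2 size factors (adjusted p = 0.0504), the DESeq2 Wald test (0.0529) or at least 10 counts in every library (0.0521). With only the compared libraries in the fit Nfkbia did not pass (adjusted p = 0.0625).

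In the presence of PF, 5 of the 10 genes were higher in AMPKβ1-/- than in WT cells and 1 was lower, where 24.1% of all genes were higher and 22.9% lower. Rel and Nfkbiz passed 0.8 on the log2 scale, as 14.3% of all genes did. Nfkbiz was at 29.3, 33.9 and 32.4 CPM in WT PF and 85.6, 68.9 and 74.6 CPM in AMPKβ1-/- PF libraries, the largest change of the 10 genes in this comparison (log2 fold change 1.26, adjusted p = 2.23e-06 by edgeR, SE 0.12). Bcl3, at 28.6, 27.9 and 21.6 CPM against 40.9, 47.4 and 42.7 CPM, was higher by 0.75 (adjusted p = 0.000124, SE 0.11). Rel (1.04, adjusted p = 0.0015), Nfkb1 (0.43, adjusted p = 0.000551) and Nfkbie (0.40, adjusted p = 0.000769) were also higher. Nfkbib was lower (-0.31, adjusted p = 0.0447) although its libraries overlapped. Relb (0.19, adjusted p = 0.123), Nfkb2 (0.085, adjusted p = 0.469), Nfkbia (0.046, adjusted p = 0.672) and Rela (-0.059, adjusted p = 0.622) did not pass. The call for Nfkbib was lost without any 1 of 7 libraries (WT vehicle replicate 3, WT PF replicates 1 and 2, AMPKβ1-/- vehicle replicates 2 and 3, and AMPKβ1-/- PF replicates 1 and 2; adjusted p 0.0525 to 0.287), and Relb passed without WT PF replicate 1 (0.31, adjusted p = 0.016). Nfkbib also did not pass with DESeq2 size factors (adjusted p = 0.0575) or the DESeq2 Wald test (0.0594). The same held with at least 10 counts in every library (0.0581) and with only the compared libraries (0.0856). With the GC and length offset 7 of the 10 were higher and none lower, beside 1800 higher and 2292 lower of all 10822 genes. Nfkbiz was then at 1.28 (adjusted p = 5.72e-08) and Bcl3 at 0.97 (adjusted p = 5.72e-08), and Rel no longer passed (0.13, adjusted p = 0.318). Scaling by library size alone moved the median of all genes from -0.0012 to 0.15, with 3444 genes higher and 1359 lower in place of 2613 and 2481, and left 8 of the 10 genes higher and none lower. The comparisons within and between genotypes share libraries with one another, so their values are not independent.

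Genes of the wider pathway were called in both directions, as were genes at large. Of 27 kinases and adaptors that act upstream of the inhibitors, 3 rose and 5 fell with PF in WT cells (edgeR, adjusted p under 0.05), where 6.99% of all genes rose and 8.95% fell, with a median log2 fold change of -0.076. Those that rose were Malt1 (log2 fold change 0.76), the paracaspase of the CARD complexes, Chuk (0.72), the IKKα kinase, and Map3k7 (0.60), the TAK1 kinase. The most lowered were Ikbke (-0.50), an IKK-related kinase, Map3k14 (-0.44), the NIK kinase of the non-canonical pathway, and Ticam1 (-0.41), the TRIF adaptor. With the offset 2 rose and 2 fell, beside 355 and 435 of all 10822 genes. Of these 6, only Ikbke kept its call in all 21 alternatives (adjusted p at most 0.0274). Chuk lost its call without any 1 of 9 libraries, all but WT vehicle replicate 2, WT PF replicate 1 and AMPKβ1-/- vehicle replicate 1, and its adjusted p reached 0.28 over all alternatives. Malt1 and Map3k7 lost theirs without WT vehicle replicate 1 or 3 or WT PF replicate 3 (adjusted p up to 0.128 and 0.115 over all alternatives). Map3k14 lost its call without WT vehicle replicate 3 or WT PF replicate 2 or 3, and Ticam1 without these or WT vehicle replicate 1 (adjusted p up to 0.308 and 0.137).

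Among 27 genes for inhibitor turnover and other regulation of the pathway, not all of them negative regulators, 1 rose and 4 fell with PF in WT cells. Their median log2 fold change was 0.055, and the shares of all genes were the same 6.99% and 8.95%. Cul1, the scaffold of the ubiquitin ligase that marks the inhibitors for degradation, rose by 0.55, while Pdlim2, which limits nuclear RelA, changed by -0.43, and Rnf31 and Rbck1, subunits of the linear ubiquitin ligase, by -0.39 and -0.35. With the offset none rose and 1 fell, beside 355 and 435 of all 10822 genes. The call for Cul1 was lost without any 1 of 9 libraries (all but WT vehicle replicate 2, WT PF replicate 1 and AMPKβ1-/- vehicle replicate 1), those for Rnf31 and Rbck1 without WT vehicle replicate 1 or 3 or WT PF replicate 2 or 3, and that for Pdlim2 without WT vehicle replicate 1 or WT PF replicate 3. Their adjusted p reached 0.188, 0.275, 0.484 and 0.148 over all alternatives.

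Of 42 known NF-κB target genes, 30 could be tested, of which 3 rose and 4 fell with PF in WT cells (median log2 fold change -0.019), beside 6.99% and 8.95% of all genes. With the offset 3 also rose and 4 fell, not all of them the same genes, beside 355 and 435 of all 10822 genes. The chemokine genes Ccl4 (log2 fold change 0.98) and Ccl3 (0.59) and the plasminogen activator Plau (0.68) rose. The matrix protease Mmp9 (-1.13), the adhesion molecule Icam1 (-0.55) and the adaptor Traf1 (-0.44) fell. The calls for Ccl4, Plau and Icam1 held in all alternatives, and that for Ccl3 was lost with the offset (0.22, adjusted p = 0.467). Mmp9 lost its call without WT vehicle replicate 1 or 3 or WT PF replicate 2 or 3 (adjusted p up to 0.15), with the offset (-0.93, adjusted p = 0.085) and with only the WT libraries in the fit (0.0697). Traf1 lost its call without WT PF replicate 3 (0.0509) or with only the WT libraries (0.0534). No gene of the 3 lists passed with PF in AMPKβ1-/- cells. The response of 1 differed between the genotypes, that of Ccl4 (difference 1.13 on the log2 scale, adjusted p = 0.0417 by edgeR, SE 0.22), a call lost without any 1 of 8 libraries: WT vehicle replicate 1 or 3, WT PF replicate 2, AMPKβ1-/- vehicle replicate 2 or 3, or any AMPKβ1-/- PF replicate (adjusted p up to 0.17). With the offset 3 target genes passed the test of this difference, 1 with a positive and 2 with a negative value, beside 88 and 98 of all 10822 genes.

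Between the genotypes with vehicle, 12 of the 27 kinases and adaptors were higher in AMPKβ1-/- cells and 9 lower, 8 of the 27 turnover genes were higher and 11 lower, and 5 of the 30 target genes were higher and 14 lower, where 29.7% of all genes were higher and 30% lower. The medians of the 3 lists, -0.0030, -0.076 and -0.18, stood beside -0.026 for all genes. Tab3 (log2 fold change 2.11), Chuk (1.41) and Malt1 (1.37) were the kinases and adaptors raised most, and Ticam1 (-0.59), Fadd (-0.58) and Tab1 (-0.50) those lowered most. Nkap (1.25), Tnip3 (1.05) and Cyld (0.99), the last a deubiquitinase of the pathway, were raised, and Rbck1 (-0.67), Pdlim2 (-0.64) and Nfkbil1 (-0.60) lowered. Of the targets Birc2 (1.07), Cxcl2 (0.91) and Cflar (0.79) were raised, and Plau (-0.95), the survival gene Bcl2l1 (-0.91) and the growth factor gene Csf1 (-0.79) lowered. With the GC and length offset the counts were 8 and 6, 4 and 8, and 3 and 6, beside 1564 genes higher and 2165 lower of all 10822. Tab1, Nkap, Cyld, Pdlim2, Nfkbil1, Birc2, Cxcl2, Cflar and Csf1 then no longer passed, and the sign of Tnip3 turned (-0.072, adjusted p = 0.548). Csf1 also lost its call without WT vehicle replicate 3 or AMPKβ1-/- vehicle replicate 2 or 3 (adjusted p up to 0.136 over all alternatives).

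The genes whose levels most resembled Rela across the 12 libraries, by Pearson's r of log2 CPM among 7833 genes of at least 10 CPM, were Cd82 (r = 0.99), Fes (0.98) and Tbl2 (0.98). For Nfkb1 they were Abcb4 (0.94), Pou2f2 (0.94) and Nlrp3 (0.94). The libraries share their groups, depth and GC trend, so these values rank likeness and test nothing.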

How the data were processed

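BMDM libraries (3 per group, 12 in all) were analysed from the gene table the authors deposited, whose values are estimated counts from Salmon after trimming with Trim Galore; the genome build, annotation and Salmon version are not given in the sources used here. Its columns were matched to groups by their names, since these give genotype, treatment and a number but no sample title. Depth was 8935609 to 14358180 counts a library, so 3 counts, taken as the floor, are 0.196 to 0.321 CPM. The floor covers counting error only, while the SDs and SEs given above include the spread between libraries.

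Estimated counts were used as deposited, filtered with filterByExpr, scaled by TMM and fitted as 4 group means over all 12 libraries (edgeR 4.0.16 in R 4.3.3, robust quasi-likelihood F test). P-values were adjusted by Benjamini-Hochberg over 10822 genes, with adjusted p under 0.05 as the threshold, alone or with a log2 fold change beyond 0.8. The script was tested on simulated data. Alternatives were DESeq2 1.42.0 size factors and its Wald test, library size alone, 2 other filters, the compared libraries only, a replicate block, a spline offset (5 degrees of freedom) for GC content and transcript length from GENCODE M21 (GRCm38; 12703 genes matched by symbol, 191 by an older symbol, 66 not matched), and leaving out each library. Promoters came from RefSeq.

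The members and gene lists were chosen with earlier results of these data known. All members were named; of each list, up to 3 genes with the largest change in either direction among those past the threshold were named in the comparison of PF with vehicle in WT cells and of the genotypes with vehicle, and every gene past it in the other PF comparison and the interaction; and the 3 genes most correlated with Rela and with Nfkb1.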

Additional observations from a re-analysis of the deposited data

Results flagged for a closer look

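For 2 genes of the family the PF and vehicle libraries stood apart in both genotypes, in opposite directions. Of all genes tested, 32.2% stood apart in either direction in WT cells and 14.5% in AMPKβ1-/- cells. The share of all genes apart in opposite directions in the 2 genotypes was not computed. The count of 2 therefore cannot be set against genes at large and shows nothing particular to the family. For Bcl3 the difference, WT response minus AMPKβ1-/- response, was -0.96 on the log2 scale and passed the interaction test (edgeR, adjusted p = 0.0196). All 3 PF libraries were below the vehicle libraries in WT cells and all 3 were above them in AMPKβ1-/- cells. For Nfkbie the libraries were apart in opposite directions in the same way, with a difference of -0.46. The interaction test was not passed for Nfkbie (edgeR, adjusted p = 0.0739), but it was passed with DESeq2 (adjusted p = 0.018). The nearest vehicle and PF libraries of Nfkbie in AMPKβ1-/- cells stood at 66.92 and 66.995 CPM. Neither rise in AMPKβ1-/- cells passed on its own by edgeR. The log2 fold change was 0.26 for Bcl3 (adjusted p = 0.928) and 0.084 for Nfkbie (adjusted p = 0.982).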

How the results depend on the processing

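Over the 10 genes and 5 comparisons, 888 of 1040 alternative values kept their direction and side of the threshold, 87 lost a call, 21 gained one and 56 changed sign, groups that overlap. Where a result changed, the cause was not tested. Nfkb2 and Bcl3 stayed lower with PF in WT cells in all 21 alternatives.

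With PF in WT cells, members lower numbered 8, and 7 with DESeq2 size factors or no filter, 5 with library size alone, 2 with only the compared libraries, 4 with the GC and length offset, 4 with this offset and the block, and 2 to 8 when 1 library was left out. In the interaction, DESeq2 called 2 members, and leaving out 1 library gave 0 to 4 (0 to 1 past 0.8), with 0 past 0.8 under the offset, also with the block. Between genotypes with vehicle, library size alone gave 3 calls and 2 past 0.8, the offset 0 past 0.8, also with the block, and leaving out 1 library 1 to 2 past 0.8.

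The sign changed with the offset, and with offset and replicate block, as follows. In WT cells with PF, Rel was -0.008354 (offset only) and Nfkbib 0.1741 and 0.1737. In AMPKβ1-/- cells with PF, Relb was 0.02238 and 0.02125, Nfkb2 0.01754 and 0.01696, and Nfkbia 0.02718 and 0.02744. In the interaction, Rel was -0.1054 and -0.1011, and Nfkbib 0.1068 and 0.1084. Between genotypes with vehicle, Rela was 0.06592 and 0.06559, Relb 0.1947 and 0.1942, Nfkb2 0.0005858 and 0.001468, Nfkbia 0.06772 and 0.0665, Nfkbib 0.04465 and 0.04649, Nfkbie 0.3136 and 0.3141, Bcl3 0.2399 and 0.2367, and Tnip3 -0.07172 and -0.07053. Between genotypes with PF, Rela was 0.1244 and 0.1242.

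Library size alone turned Nfkbib in WT cells with PF (0.01124), Nfkbie between genotypes with vehicle (0.1506), Rela between genotypes with PF (0.09193), and Relb (0.01273) and Nfkbia (0.00968) in AMPKβ1-/- cells with PF. The latter 2 also turned with DESeq2 size factors (Relb 0.006123, Nfkbia 0.002616) and its Wald test (0.00622 and 0.002551).

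Leaving out 1 library turned these uncalled values, over ranges of: in AMPKβ1-/- cells with PF, Rela -0.09317 to 0.01254, Relb -0.06462 to 0.05854, Nfkb2 -0.06365 to 0.0304, Nfkbia -0.04211 to 0.02269, Nfkbib -0.02826 to 0.06052 and Nfkbiz -0.04603 to 0.1136; Nfkbib with PF in WT cells -0.2263 to 0.06867; in the interaction, Rel -0.1522 to 0.3252 and Nfkbib -0.257 to 0.03172; and Rela between genotypes with PF -0.123 to 0.02733. Without division by length, the inhibitor to subunit log2 ratio was -1.19, -1.106, -1.25 and -1.252 in WT vehicle, WT PF, AMPKβ1-/- vehicle and AMPKβ1-/- PF cells.

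Of all genes, 1725 passed with PF in WT cells (165 also past 0.8), 419 (77) with only the compared libraries, 790 (52) with the offset, and 346 to 3243 (45 to 459) with 1 library left out. In AMPKβ1-/- cells 6 (6) passed, 49 (32) with DESeq2, 62 (38) with only the compared libraries, 3 (1) with the offset, and 0 with library size alone, with 10 counts in every library or with the block, and 0 to 18 (0 to 17) with 1 library left out. The interaction gave 45 (17), 190 (38) with DESeq2 186 (26) with the offset and 5 to 284 (4 to 84) with 1 library left out. Between genotypes with vehicle 6465 (1931) passed, and 3729 (486) with the offset. With PF 1543 passed both thresholds, and 757 with the offset.

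The column numbers do not pair the libraries by any label, and same-numbered libraries did not deviate together in every pair (r from -0.17 to 0.32). A replicate block left the 8 members lower with PF in WT cells and changed no call of a member, with 889 genes higher and 1094 lower. What depth limits was not tested; Rel, the lowest member per kb, had 129 to 734 counts a library.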
